A study of Mus musculus with 18 samples.

Results

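Liver X receptors (LXRs), their best known target genes and the lipid droplet gene Plin2 were followed in 18 RNA sequencing libraries of mouse macrophages. The 8 genes were taken by name from the 55401 genes in the count files: the receptors Nr1h2 (LXR beta) and Nr1h3 (LXR alpha), and Abca1, Abcg1, Apoe, Mylip, Lpcat3 and Plin2. All 8 were found, and all 8 had enough counts to be tested in every comparison. The cells were of the C57BL/6J strain, and every group had been given lipopolysaccharide (LPS), an outer membrane lipid of bacteria to which macrophages respond, at 5 ng/ml for 6 h. The 6 groups held 3 libraries each. IC-21, an established mouse peritoneal macrophage line, was transfected with an siRNA against Smim30 (siSmim30) or with a control siRNA (siCtrl) for 24 h before LPS. Peritoneal macrophages of mice with a mutated Smim30 gene were given an adenovirus carrying Smim30 (Mut AdSmim30) or a control adenovirus (Mut AdCtrl), added 6 h after seeding and left for 24 h before LPS. Peritoneal macrophages of Smim30 mutant mice (Mut) and of wild-type mice (WT) received LPS without virus. Both virus groups therefore carried the mutation, and all cells were activated, so no group shows the resting level of these genes. The labels call the 3 libraries of a group triplicates without saying whether they came from separate animals or cultures, so p-values measure the spread between these libraries, which may be technical. The base change of the mutation and the relation of Mut to WT mice are not given in the labels.

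LXRs are nuclear receptors that bind oxysterols, oxidised forms of cholesterol, and pair with retinoid X receptors (RXRs) on DNA. In macrophages they raise the export of cholesterol through the membrane transporters ABCA1 and ABCG1 and the secreted lipid carrier apolipoprotein E. They also raise Mylip (also called Idol), a ubiquitin ligase that acts on lipoprotein receptors, and Lpcat3, an enzyme that places polyunsaturated fatty acids into membrane phospholipids. Plin2 coats lipid droplets, the stores of neutral lipid that fill lipid-laden macrophages, and is mainly known as a target of the PPAR receptors. LPS signalling is known to interfere with LXR-driven transcription.

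LXR and RXR bind a direct repeat of a half-site with 4 bases between its copies, called DR4 and searched here on both strands as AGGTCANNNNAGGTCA. RefSeq promoters of 300 bases, from 250 bases before to 50 after the start, were at hand for 7 of the 8 genes, all but Abcg1. The Abca1 promoter is shown because it held the closest DR4 match among these genes. The Plin2 promoter was no closer to DR4 than most of the others and is shown because it alone held an exact half-site. The Abca1 promoter lies at chr4:53159846-53160145 on the minus strand of GRCm38.p6. Its capitals mark the closest DR4 match, 67 to 52 bases before the start, which departs from the 12 fixed letters of the repeat at 3 positions and reads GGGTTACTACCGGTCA on the other strand. The Plin2 promoter lies at chr4:86670010-86670309, also on the minus strand, and its capitals mark a single half-site on the other strand.
Abca1: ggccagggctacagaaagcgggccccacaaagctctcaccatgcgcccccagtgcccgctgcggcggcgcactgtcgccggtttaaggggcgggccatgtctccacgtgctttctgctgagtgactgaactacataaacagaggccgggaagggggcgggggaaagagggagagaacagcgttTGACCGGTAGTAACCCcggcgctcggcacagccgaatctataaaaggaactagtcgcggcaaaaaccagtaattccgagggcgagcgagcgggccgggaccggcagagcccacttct
Plin2: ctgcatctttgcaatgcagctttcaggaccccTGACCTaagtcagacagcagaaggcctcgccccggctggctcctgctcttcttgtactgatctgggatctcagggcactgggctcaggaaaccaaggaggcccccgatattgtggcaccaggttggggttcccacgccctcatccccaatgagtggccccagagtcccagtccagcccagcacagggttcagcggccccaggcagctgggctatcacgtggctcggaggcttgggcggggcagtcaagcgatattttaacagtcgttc
Of 32851 promoters of the same length, 21.9% held a DR4 match with at most 3 departures and 16.3% held the exact half-site AGGTCA. A match of either kind is therefore common, and is given as a description of the sequence only. The promoters of Nr1h2, Nr1h3, Apoe, Mylip and Lpcat3 held neither within these 300 bases.

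Between 6855245 and 13456857 read pairs were assigned to genes in each library, so 3 counts, taken as the detection floor, stood for 0.223 to 0.438 CPM (counts scaled to library size). Levels are given in CPM on a common scale over the 18 libraries (trimmed mean of M-values, TMM), and levels of different genes are compared only per kilobase of exon (FPKM). Smim30 is listed in the annotation as 2610001J05Rik. It averaged 7.69 ± 1.13 CPM in siSmim30 and 15.3 ± 0.55 CPM in siCtrl (SD, n = 3 each), and 62.7 ± 2.48 CPM in Mut AdSmim30 and 51.8 ± 2.10 CPM in Mut AdCtrl. It was at 57.5 ± 6.21 CPM in Mut and 57.3 ± 4.83 CPM in WT, a log2 difference of 0.01 (SE 0.08), and gene counts cannot show a change within the coding part. The macrophage markers (7 genes such as Adgre1, Cd68 and Csf1r) summed to 1846 to 2012 CPM in IC-21 cells and 10486 to 13423 CPM in the peritoneal libraries without virus, with no marker at 0. Of 7 markers of large peritoneal macrophages, the main resident macrophage of the peritoneum, Gata6, Timd4, Prg4 and Vsig4 were at 0 in every IC-21 library. T cell markers summed to at most 1.32 CPM and mast cell markers to at most 7.92 CPM in every library.

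Abcg1 spanned the groups in clear steps: Mut AdCtrl was highest, then Mut AdSmim30, Mut, WT, siCtrl and siSmim30, and only the last pair had overlapping libraries. Apoe had the widest span, with means of 7269.7 CPM in Mut AdCtrl and 3.66 CPM in siCtrl. Abca1 had the narrowest span of the transporters: all 4 peritoneal groups lay between 813 and 972 CPM and each overlapped the next in order, while both IC-21 groups lay between 501 and 608 CPM. Lpcat3 ran in another order from the rest, highest in Mut and WT, which overlapped, and lowest in Mut AdCtrl. Nr1h2 was highest in WT and Mut, which overlapped, then in the virus groups, which also overlapped, and lowest in IC-21. Nr1h3 was highest in the virus groups, followed by WT and Mut and then IC-21, where it was near 10 CPM. Plin2 and Mylip were also highest in the virus groups and lowest in IC-21.

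**Figure D1:**
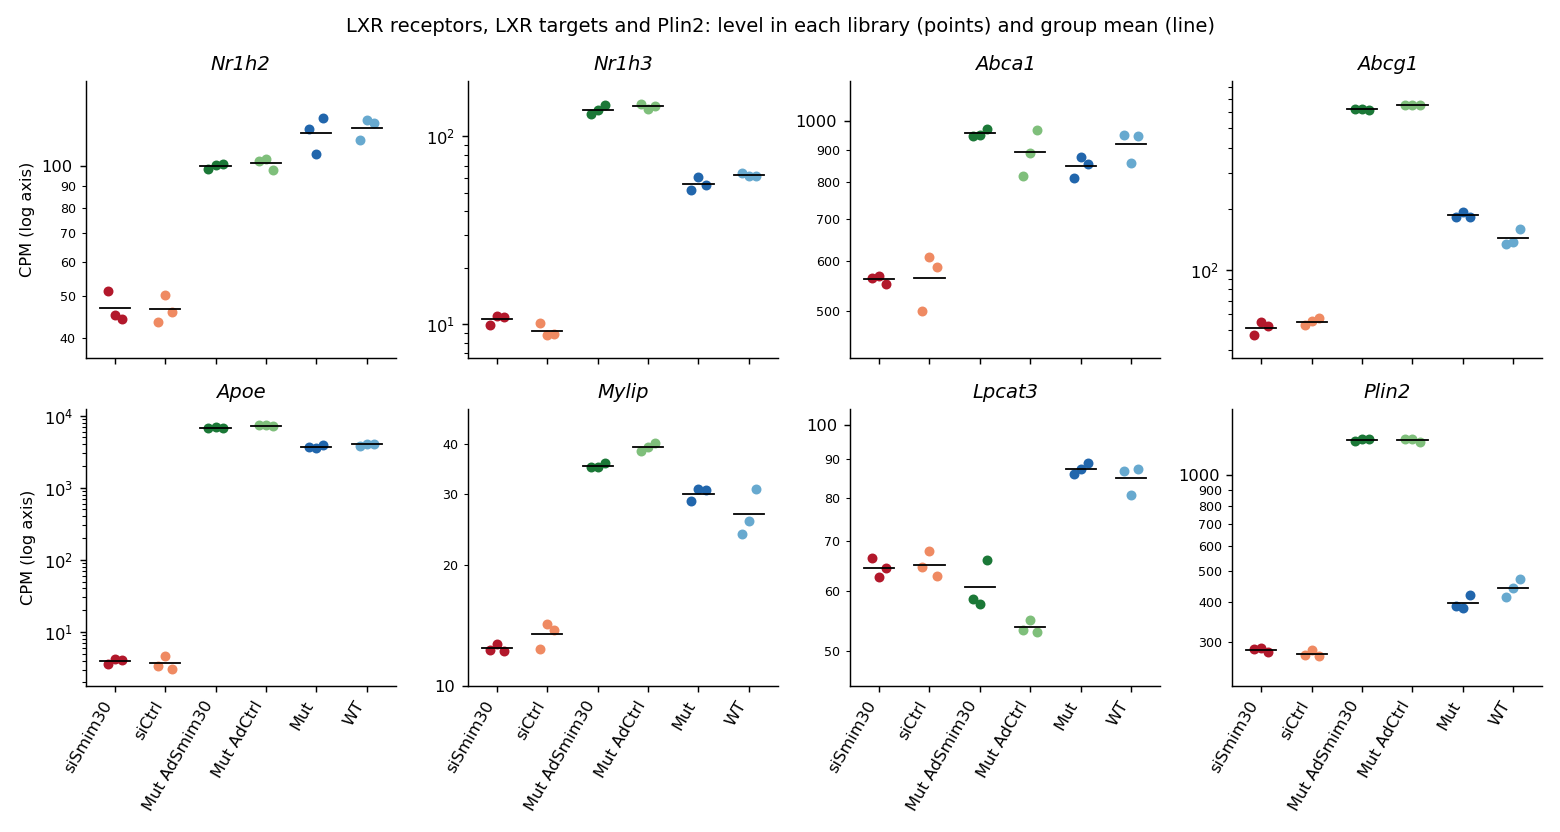
Level of each of the 8 genes in CPM (log axis) in each of the 18 libraries (points, 3 per group) with the group mean (line). Abcg1, Plin2, Apoe, Nr1h3 and Mylip were highest in both virus groups, Apoe was near 4 CPM in IC-21, and Abca1 in the 4 peritoneal groups lay between 813 and 972 CPM.

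Mut and WT macrophages were compared to ask how these genes differ with the Smim30 mutation in activated primary cells. Abcg1, the transporter that passes cholesterol to mature HDL particles, was higher in Mut and Plin2 was lower, and these 2 of the 8 genes passed where 6.3% of all genes did. The Abcg1 level was 182, 193 and 182 CPM in the Mut libraries, against 134, 136 and 158 CPM in the WT libraries. Every Mut library was above every WT library. The difference was 1.30-fold (log2 0.38, SE 0.06, adjusted p = 4.43e-05, edgeR quasi-likelihood test with Benjamini-Hochberg adjustment). In all 15 alternative fits Abcg1 remained called, with log2 values of 0.34 to 0.45.

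Plin2 fell in Mut by a small amount near the threshold. It had 389, 383 and 423 CPM in Mut libraries, against 417, 444 and 474 CPM in WT libraries, so 1 Mut library lay within the WT range. The log2 difference was -0.16 (SE 0.05, adjusted p = 0.0449, edgeR). The call was lost with DESeq2 (adjusted p = 0.0663), without a composition factor (0.0573) and without the low-count filter (0.0733). Leaving out Mut replicate 1 (0.149) or Mut replicate 2 (0.218) also ended it, as did leaving out WT replicate 2 (0.219) or its replicate 3 (0.267).

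The other 6 genes did not pass the test in Mut against WT. The receptor Nr1h3 had 52.0, 61.0 and 54.8 CPM in Mut libraries, against 63.8, 61.3 and 61.8 CPM in WT libraries. Its groups did not overlap, but the log2 difference of -0.16 (SE 0.08) had an adjusted p of 0.27 in edgeR. Abca1, which loads cholesterol onto lipid-poor apolipoprotein A-I, averaged 848 ± 31.9 CPM in Mut and 918 ± 51.6 CPM in WT (SD, n = 3 each), with overlapping libraries and a log2 difference between -0.21 and -0.02 (95% interval). Apoe averaged 3734 ± 175 CPM in Mut and 3989 ± 139 CPM in WT (log2 -0.10, SE 0.04, edgeR adjusted p = 0.216). Nr1h3, Abca1 and Apoe had unadjusted p-values under 0.05. How many of all genes had separate groups or such p-values was not counted, so neither trait sets these 3 genes apart. Mylip averaged 30.1 ± 1.12 CPM in Mut and 26.8 ± 3.68 CPM in WT (log2 interval -0.04 to 0.37). For Nr1h2 and Lpcat3 the log2 differences were -0.04 and 0.04, with an SE of 0.06 each.

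Across all genes, 788 of 12500 (6.3%) passed in Mut against WT, 460 (3.68%) higher and 328 (2.62%) lower, and without Mut replicate 2 the count was 469. Of the 8 genes, 2 passed, 1 in each direction, and their median log2 difference was -0.07 against -0.01 over all genes. Beyond the 8, lists of 97 related genes were followed, of which 72 could be tested and 9 (12.5%) passed, with a median log2 of -0.04. Higher in Mut were the LXR targets Lpl, which releases fatty acids from lipoproteins (5445, 5833 and 5971 CPM in Mut, against 3949, 3931 and 4427 CPM in WT, log2 0.49, adjusted p = 1.5e-08), and Scd1, which desaturates fatty acids (log2 0.56, SE 0.07, adjusted p = 4.11e-06, both edgeR). They were 2 of 10 other LXR targets tested, and the remaining 8 did not pass. Lower in Mut were Soat1, which esterifies cholesterol for storage (log2 -0.34), Mgll, which splits monoacylglycerol (log2 -0.32), Rxra, an RXR partner of the LXRs (log2 -0.25), Npc1, which exports cholesterol from lysosomes (log2 -0.20), and the fatty acid binding gene Fabp5 (log2 -0.20). The lipoprotein receptor genes Lrp8 and Lrp1 were also lower (log2 -0.26 and -0.22).

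Several measures of cell make-up and RNA moved with the same groups, and their part in these differences was not tested. The 7 large peritoneal macrophage markers summed to 332 to 360 CPM in Mut and 436 to 497 CPM in WT, a sum mostly of Cd93 (mean 327 CPM in Mut and 434 CPM in WT), and 2 of the 6 that could be tested, Cd93 and Prg4, were lower. The 7 macrophage markers summed to 10486 to 11383 CPM in Mut and 12092 to 13423 CPM in WT. Of these, Fcgr1 was higher (log2 1.21) and Lyz2 lower (log2 -0.29) in Mut. The 5 dendritic cell markers summed to 10.3 to 14.8 CPM in Mut and 6.63 to 7.81 CPM in WT. The 6 B cell markers summed to 60.1 to 68.4 CPM in Mut and 88.7 to 94.0 CPM in WT. Only 1 of 2 dendritic cell markers tested was called higher, and 1 of 4 B cell markers tested was called lower. In the macrophage line IC-21 the same sums were 5.53 to 7.45 CPM and 34.3 to 43.9 CPM. Of 5 neutrophil markers S100a9, Ly6g and Retnlg were at 0 in Mut and WT, and the sum was 10.8 to 14.2 CPM in Mut and 15.4 to 18.1 CPM in WT. The 10 fibroblast and mesothelial markers overlapped, at 245 to 290 CPM in Mut and 272 to 299 CPM in WT. In bulk RNA, fewer cells of a type and less RNA per cell cannot be told apart. Ribosomal RNA genes held 0.399 to 1.03% of counts in Mut and 1.74 to 2.49% in WT. Without these genes the log2 difference of Abcg1 was again 0.38 (adjusted p = 4.4e-05, edgeR). That refit kept 12498 of 12500 tested genes and takes out only the counts of the removed genes. It cannot show whether the RNA of the groups differed in other ways, which was not tested.

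The Smim30 virus was compared with the control virus, both in Mut cells, to ask whether added Smim30 moves the same genes. Counted Smim30 RNA was 1.21-fold higher in Mut AdSmim30 than in Mut AdCtrl (log2 0.28, SE 0.06). The count covers all exons of the gene, so it need not give the rise of the part that the virus carries. What a different rise would do was not tested. Apoe was the only one of the 8 to pass, where 1.43% of all genes did. It had 6809.9, 6918 and 6777 CPM in Mut AdSmim30 libraries, against 7341, 7386 and 7082 CPM in Mut AdCtrl libraries. All Mut AdSmim30 libraries were below all Mut AdCtrl libraries, but the change was small: a log2 difference of -0.09 (SE 0.02, adjusted p = 0.00166, edgeR), or 1.06-fold lower. The call was lost with DESeq2 (adjusted p = 0.0723), in the fit of all 18 libraries together (0.539) and without Mut AdSmim30 replicate 3 (0.0766).

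Abcg1 had 619, 624 and 614 CPM in Mut AdSmim30 libraries, against 647, 650.2 and 652 CPM in Mut AdCtrl libraries. These groups did not overlap either, but the log2 difference of -0.07 (SE 0.03) did not pass (edgeR adjusted p = 0.234). Abca1 had 945, 949 and 972 CPM in Mut AdSmim30 libraries, against 818, 889.9 and 967 CPM in Mut AdCtrl libraries. The wide spread of the Mut AdCtrl libraries overlapped the other group, and the log2 difference of 0.10 (SE 0.07, edgeR adjusted p = 0.721) passed once Mut AdCtrl replicate 3 was left out (log2 0.16, adjusted p = 1.25e-06). Lpcat3 averaged 60.8 ± 4.54 CPM in Mut AdSmim30 and 53.7 ± 1.04 CPM in Mut AdCtrl (SD, n = 3 each), and Mylip 35.3 ± 0.457 CPM in Mut AdSmim30 and 39.2 ± 0.909 CPM in Mut AdCtrl. Neither passed (log2 0.18 and -0.15, edgeR adjusted p = 0.173 and 0.458). Their groups did not overlap and both had unadjusted p-values under 0.05. How many of all genes had separate groups or such p-values was not counted, so neither trait sets Abcg1, Lpcat3 or Mylip apart. Plin2 averaged 1288 ± 11 CPM in Mut AdSmim30 and 1284 ± 15.3 CPM in Mut AdCtrl, with a log2 difference between -0.04 and 0.05 (95% interval). Nr1h3 averaged 139 ± 7.49 CPM in Mut AdSmim30 and 145 ± 4.38 CPM in Mut AdCtrl (log2 -0.06, SE 0.04), and the log2 difference of Nr1h2 was -0.02 (SE 0.05).

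Of 12701 genes tested in that comparison, 181 passed (1.43%), 74 (0.583%) higher and 107 (0.842%) lower. Single libraries moved this number: leaving out Mut AdCtrl replicate 1 gave 82 and leaving out replicate 3 of that group gave 453, while leaving out Mut AdSmim30 replicate 2 gave 106 and its replicate 3 gave 66. Of the 97 related genes, 74 were tested and 6 (8.11%) passed, 5 higher and 1 lower. The fatty acid synthesis genes Scd2 (log2 0.50, SE 0.05) and Fasn (log2 0.35, SE 0.07) rose, as did Lpl (log2 0.19, SE 0.02), all 3 of them among the 10 other LXR targets tested. Of the PPAR list, Cd36, a fatty acid and lipoprotein uptake receptor, rose (log2 0.11) and Fabp4 fell (log2 -0.14). The fibroblast and mesothelial markers moved with these groups. They summed to 59.2 to 68.1 CPM in Mut AdSmim30, where Msln and Krt19 were at 0, and 107 to 132 CPM in Mut AdCtrl, and all 6 that could be tested fell (median log2 -1.13). Their part in the differences was not tested. The 7 large peritoneal macrophage markers summed to 1277 to 1284 CPM in Mut AdSmim30 and 1226 to 1293 CPM in Mut AdCtrl, and none of the 5 tested passed. Of the 7 macrophage markers Itgam (log2 0.27) and Adgre1 (log2 0.15) rose, while their sum was 11223 to 11360 CPM in Mut AdSmim30 and 11352 to 11535 CPM in Mut AdCtrl.

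The Smim30 siRNA was compared with the control siRNA to ask the same of a knockdown in a cell line. None of the 8 genes passed. Of 13576 genes 472 (3.48%) passed in edgeR, 324 (2.39%) higher and 148 (1.09%) lower, while none of the 8 genes had an unadjusted p under 0.05, and none passed with DESeq2 or limma-voom. Without a composition factor 495 genes passed, 269 higher and 226 lower, and without siCtrl replicate 2 the count was 309. Abcg1 had 47.7, 54.9 and 52.3 CPM in siSmim30 libraries, against 52.9, 55.7 and 57.4 CPM in siCtrl libraries. The groups overlapped, and the log2 difference lay between -0.21 and 0.03 (95% interval). Plin2 had 285, 288 and 280.1 CPM in siSmim30 libraries, against 273, 284 and 273 CPM in siCtrl libraries (log2 0.05, interval -0.01 to 0.11). Abca1 averaged 562 ± 8.92 CPM in siSmim30 and 565 ± 56.7 CPM in siCtrl (SD, n = 3 each), and its log2 difference lay between -0.12 and 0.13.

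Precision was lower for the weakly expressed genes of the line. Apoe rested on 41, 51 and 43 counts in siSmim30 libraries, against 33, 75 and 37 counts in siCtrl libraries, and its log2 interval ran from -0.33 to 0.50. Nr1h3 averaged 10.6 ± 0.586 CPM in siSmim30 and 9.24 ± 0.773 CPM in siCtrl, with a log2 interval of -0.03 to 0.48. Mylip averaged 12.4 ± 0.29 CPM in siSmim30 and 13.5 ± 0.967 CPM in siCtrl (interval -0.33 to 0.11). For Nr1h2 and Lpcat3 the intervals were -0.11 to 0.14 and -0.11 to 0.10. Of the 97 related genes, 61 were tested and 9 (14.8%) passed, 3 higher and 6 lower. Lpl fell in siSmim30 (log2 -0.27, SE 0.03, adjusted p = 7.37e-11, edgeR). The lipid droplet genes Plin3 (log2 -0.33) and Pnpla2 (log2 -0.25), the second a triglyceride lipase, also fell. Lipa, the lysosomal lipase that frees cholesterol from its esters, rose by log2 0.13 and Npc1 fell (log2 -0.14).

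**Figure D2:**
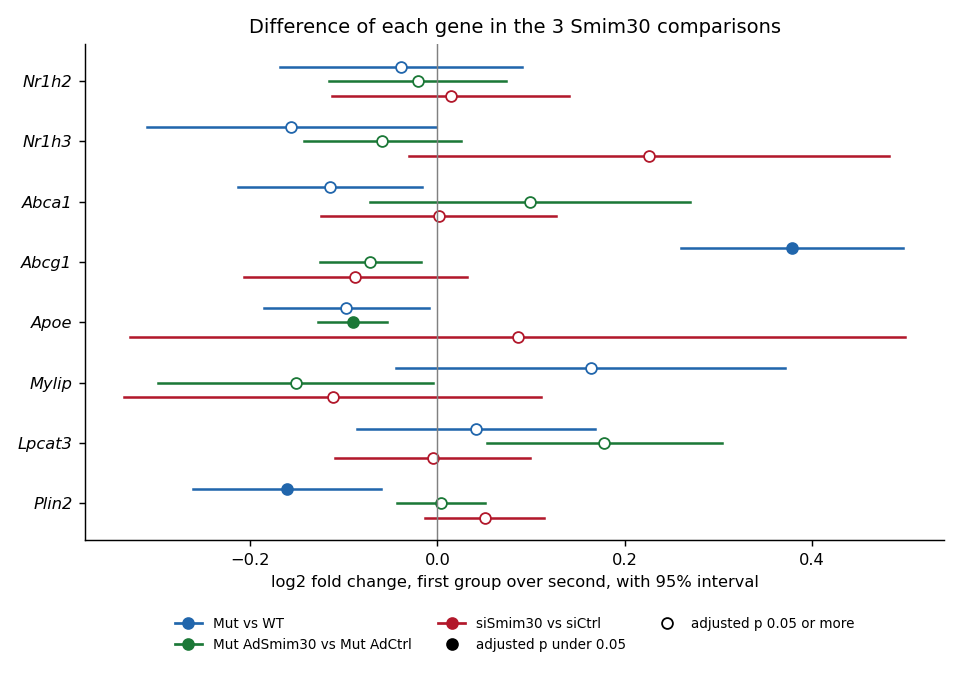
Log2 fold change of each gene with its 95% interval in Mut against WT (blue), Mut AdSmim30 against Mut AdCtrl (green) and siSmim30 against siCtrl (red), where filled points have an adjusted p under 0.05. Abcg1 in Mut against WT stands apart at 0.38, Plin2 in the same comparison and Apoe in the virus comparison are the other filled points, and every red point is open.

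The difference of Abcg1 between Mut and WT was itself compared with its difference in the other designs, which share no library with it. The mutation effect exceeded the siRNA effect by log2 0.47 (SE 0.09, adjusted p = 0.000462) and the Smim30 virus effect by log2 0.45 (SE 0.06, adjusted p = 4.3e-06, both edgeR interaction tests over 12 libraries). In the first test, cell source and kind of Smim30 change coincide and cannot be told apart. Smim30 counts differed by log2 0.01 in Mut against WT and by log2 -0.97 in siSmim30 against siCtrl. The virus adds Smim30 to mutant cells, so effects of opposite sign give a difference in the second test by themselves. That test therefore does not show that the 2 designs disagree. Here the effects were log2 0.38 and -0.07, and the virus effect of -0.07 did not pass on its own (edgeR adjusted p = 0.234). Among all genes, 372 of 14804 (2.51%) and 515 of 13422 (3.84%) passed these tests, the first count being 571 without Mut replicate 3. Abcg1 passed both in each of 21 alternative fits, and the other 7 genes passed neither test as fitted here, although some did under other settings. For Plin2 the mutation effect minus the siRNA effect was log2 -0.21 (SE 0.07, edgeR adjusted p = 0.0818), which passed in the fit of all 18 libraries (adjusted p = 0.0321) and without WT replicate 1 (0.0206) or Mut replicate 3 (0.0116). The mutation effect minus the virus effect on Plin2 was log2 -0.16 (SE 0.05, edgeR adjusted p = 0.0874), which passed without the same libraries (adjusted p = 0.0201 and 0.0158). For Abca1 this second difference was log2 -0.21 (SE 0.07, edgeR adjusted p = 0.106), and it passed without the low-count filter (0.0262) and without WT replicate 2 (0.0361) or Mut AdCtrl replicate 3 (0.00455). For Mylip it was log2 0.31 (SE 0.12, edgeR adjusted p = 0.168) and passed without WT replicate 3 (0.0491). Among the related genes, Lpl differed in both tests, with its mutation effect higher by log2 0.76 than the siRNA effect and by log2 0.29 than the virus effect.

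Mut AdCtrl was compared with Mut, in the same genotype, to describe how the genes differ between the virus part of the series and the part without virus. Control virus, a longer culture and the part of the series coincide here and cannot be told apart. The comparison shares its Mut libraries with the one against WT. Of the 8 genes, 5 rose and 2 fell, where 53.6% of all genes were called, and Abca1 did not pass. Abcg1 rose most, with 647, 650.2 and 652 CPM in Mut AdCtrl libraries, against 182, 193 and 182 CPM in Mut libraries (3.43-fold, log2 1.78, SE 0.04, adjusted p = 6e-25, edgeR). Plin2 followed, with 1293, 1292 and 1266 CPM in Mut AdCtrl libraries, against 389, 383 and 423 CPM in Mut libraries (3.16-fold, log2 1.66, SE 0.04). Within both groups the libraries lay close together, and the gap between groups was many times their spread.

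The 2 receptors moved apart in that comparison. Nr1h3 had 149, 140.0 and 145 CPM in Mut AdCtrl libraries, against 52.0, 61.0 and 54.8 CPM in Mut libraries (2.54-fold, log2 1.34, SE 0.06, adjusted p = 4.94e-18, edgeR). Nr1h2 fell, with 103, 104 and 97.9 CPM in Mut AdCtrl libraries, against 122, 106 and 129.5 CPM in Mut libraries (log2 -0.26, SE 0.06, adjusted p = 0.000362, edgeR). Per kilobase of exon, Nr1h3 stood at 1.90 ± 0.0918 times the level of Nr1h2 in Mut AdCtrl and 0.632 ± 0.114 times in Mut (SD, n = 3 each), so the order of the receptors differed between these groups. It was 1.85 ± 0.0793 in Mut AdSmim30 and 0.680 ± 0.0542 in WT.

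Apoe rose 1.91-fold, with 7341, 7386 and 7082 CPM in Mut AdCtrl libraries, against 3658, 3610.3 and 3934 CPM in Mut libraries (log2 0.93, SE 0.03). Mylip rose 1.28-fold, averaging 39.2 ± 0.909 CPM in Mut AdCtrl and 30.1 ± 1.12 CPM in Mut (log2 0.35, SE 0.08). Lpcat3 fell, with 53.3, 54.9 and 53.0 CPM in Mut AdCtrl libraries, against 85.9, 87.4 and 89.0 CPM in Mut libraries (log2 -0.73, SE 0.06, adjusted p = 1.46e-11, edgeR). The other transporter, Abca1, averaged 892 ± 74.9 CPM in Mut AdCtrl and 848 ± 31.9 CPM in Mut (log2 0.04, interval -0.07 to 0.16). The level of Abcg1 per kilobase was 1.04 ± 0.0833 times that of Abca1 in Mut AdCtrl and 0.311 ± 0.00773 times in Mut, and it was 0.920 ± 0.0201 times in Mut AdSmim30 and 0.221 ± 0.0192 times in WT. All 7 calls held in the 15 alternative fits of each gene.

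The 53.6% of genes called in Mut AdCtrl against Mut, of 12798 tested, fell into 27.1% higher and 26.5% lower, so a call alone sets no gene apart there. The 8 genes had a median log2 difference of 0.64 against -0.00 over all genes. Of the 97 related genes, 76 were tested and 61 (80.3%) passed, 40 higher and 21 lower, with a median log2 of 0.23. Of the 10 other LXR targets 4 rose and 4 fell. Pltp, the phospholipid transfer protein (log2 1.29), Cd5l, a secreted macrophage protein (log2 1.82), Smpdl3a, a secreted nucleotide phosphodiesterase (log2 1.36), and Arl4c (log2 0.69) rose. Scd2 (log2 -1.90), Scd1 (log2 -1.81) and Fasn (log2 -1.72), which make or desaturate fatty acids, fell, as did Lpl (log2 -0.42). Of 5 oxysterol and sterol enzymes tested, 1 rose and 3 fell (list median log2 -0.96). Cyp27a1, which makes 27-hydroxycholesterol, rose by log2 1.87, while Cyp7b1, which breaks down oxysterols (log2 -3.22), and Ch25h, which makes 25-hydroxycholesterol (log2 -0.96), fell, both at low counts.

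In the list of cholesterol trafficking and storage, 6 of 12 rose in Mut AdCtrl, among them the cholesteryl ester hydrolase gene Nceh1 (log2 2.17), Soat1 (log2 1.09), Lipa (log2 0.93) and Npc1 (log2 0.70). The 5 that fell included Cav1, a caveolae protein (log2 -1.90), the sterol carrier Stard4 (log2 -1.06), Abca7 (log2 -0.91) and Stard3 (log2 -0.54). In the lipid droplet list 6 of 9 rose, among them Hilpda (log2 1.99), Pnpla2 (log2 1.26) and Plin3 (log2 0.83), and Lipe and Fitm2 fell. In the PPAR list 5 of 7 rose, with Fabp4 at log2 2.40, Pparg at log2 2.22 and Fabp5 at log2 1.11, and Ppard fell (log2 -2.04). Of the RXR partners and coregulators 9 of 15 rose, most by little (list median log2 0.16), Tbl1xr1 the most (log2 1.07), and Med1 fell (log2 -0.23). The lipoprotein receptor gene Lrp8 fell (log2 -2.25). Of the lysophospholipid acyltransferases, the family of Lpcat3, Lpcat2 fell too (log2 -2.31), and 4 of 6 did not pass. Of the ABC transporter relatives 7 of 9 rose, with Abca9 at log2 1.68 and Abcg2 at log2 1.64. Abca7 stands in both the trafficking and the transporter list.

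Marker levels also moved between these groups, and their part in the result was not tested. Fibroblast and mesothelial markers summed to 107 to 132 CPM in Mut AdCtrl and 245 to 290 CPM in Mut, and all 6 tested fell. Large peritoneal macrophage markers summed to 1226 to 1293 CPM in Mut AdCtrl and 332 to 360 CPM in Mut, a sum carried by Cd93 (mean 1238 CPM in Mut AdCtrl and 327 CPM in Mut). Of the 6 tested 3 rose and 2, Timd4 and Prg4, fell, so these markers did not move together. The macrophage markers summed to 11352 to 11535 CPM in Mut AdCtrl and 10486 to 11383 CPM in Mut. Of the 7, Adgre1 (log2 -0.95) and Csf1r fell, and Fcgr1, Cd68 and Itgam rose.

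**Figure D3:**
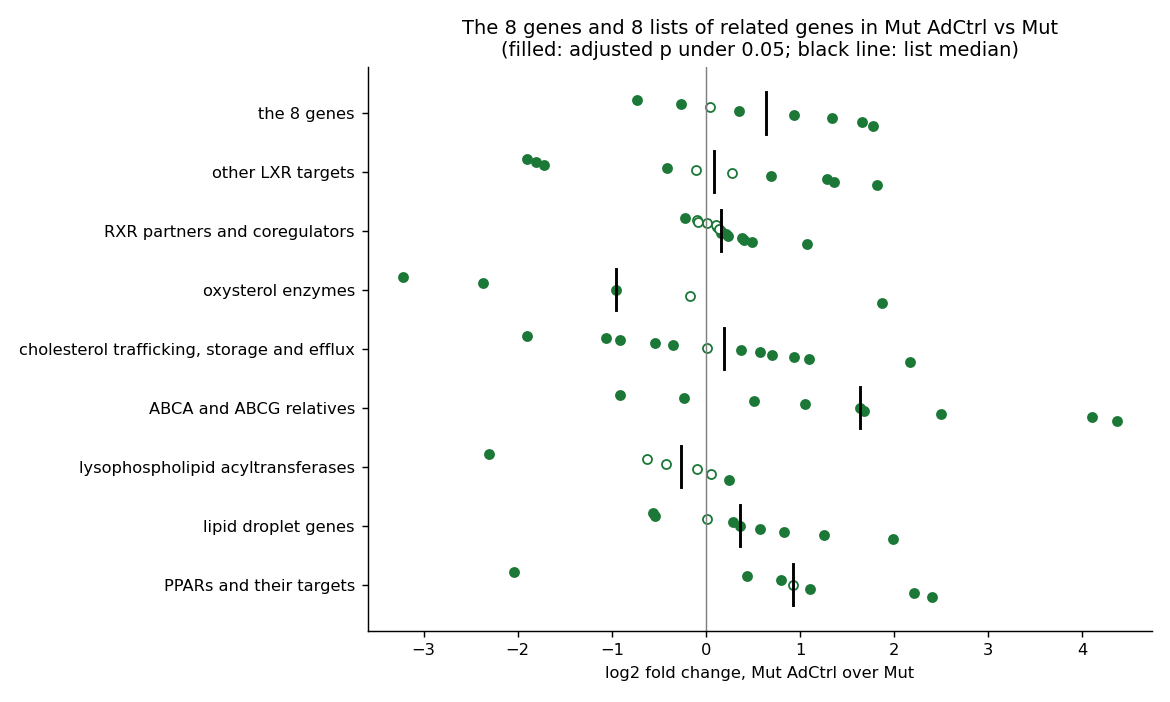
Log2 fold change of Mut AdCtrl over Mut for the 8 genes and 8 lists of related genes, 1 point per tested gene (filled, adjusted p under 0.05) with each list's median as a black line. The 8 genes run from -0.73 (Lpcat3) to 1.78 (Abcg1), and the other LXR targets split into 4 that rose and 4 that fell.

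IC-21 cells with control siRNA were compared with WT macrophages to describe the 8 genes in the line against primary cells. Cell source, transfection and part of the series coincide and cannot be told apart, and the WT libraries are those compared with Mut. All 8 genes were called lower in the line, where 80.3% of all genes were called and 40.2% were called lower. Apoe had 3.38, 4.58 and 3.03 CPM in siCtrl libraries, against 3829.9, 4049 and 4088 CPM in WT libraries (log2 -10.02, SE 0.08, adjusted p = 2.36e-54, edgeR). The siCtrl values rested on 33, 75 and 37 counts, above the floor of 3 in each library. Nr1h3 was 6.67-fold lower, with 10.1, 8.74 and 8.84 CPM in siCtrl libraries, against 63.8, 61.3 and 61.8 CPM in WT libraries (log2 -2.74, SE 0.09, adjusted p = 4.28e-30, edgeR). Abcg1 averaged 55.3 ± 2.27 CPM in siCtrl and 143 ± 13.4 CPM in WT (log2 -1.33, SE 0.06), and Nr1h2 had 43.7, 50.4 and 46.1 CPM in siCtrl libraries, against 115, 128 and 126 CPM in WT libraries (log2 -1.35, SE 0.06). Mylip averaged 13.5 ± 0.967 CPM in siCtrl and 26.8 ± 3.68 CPM in WT (log2 -0.96, SE 0.11).

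All differences in the same comparison depended on how the libraries were scaled, and the smaller ones lost their direction. Abca1 was lower by log2 -0.67, Plin2 by log2 -0.65 and Lpcat3 by log2 -0.35 under TMM. Scaled to library totals alone they were at log2 0.038 (edgeR adjusted p = 0.493), 0.054 (0.226) and 0.35 (5.09e-07). That choice moved the median of all genes by log2 0.70 and gave 9176 genes higher and 3031 lower, against 5645 (40.1%) higher and 5654 (40.2%) lower of 14066 under TMM. Under TMM the 8 genes had a median log2 of -1.15 against 0.01 over all genes. With library totals 6 were called, 5 lower and Lpcat3 higher. Nr1h2, Nr1h3, Abcg1, Apoe and Mylip were lower under every scaling, with log2 values of -0.65, -2.03, -0.63, -9.31 and -0.25 on library totals (edgeR adjusted p = 0.0316 for Mylip).

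The order of the genes within a cell also differed. Per kilobase of exon, Apoe stood first in WT macrophages at 1866 ± 65.0 FPKM, followed by Plin2 at 127 ± 8.10 and Abca1 at 88.5 ± 4.98 FPKM (SD, n = 3 each). In siCtrl cells Apoe stood last at 1.71 ± 0.382 FPKM, with Plin2 first at 78.8 ± 1.87 and Abca1 next at 54.5 ± 5.47 FPKM. Nr1h3 stood at 0.265 ± 0.0399 times the level of Nr1h2 in siCtrl and 0.680 ± 0.0542 times in WT.

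**Figure D4:**
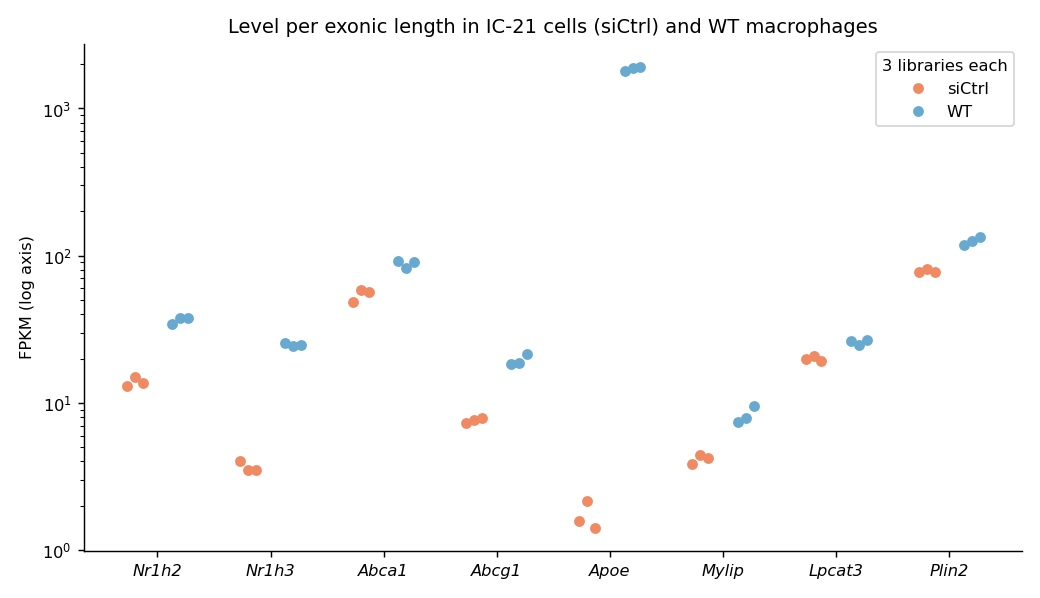
Level per kilobase of exon (FPKM, log axis) of the 8 genes in the 3 siCtrl libraries of IC-21 cells and the 3 WT libraries (points). Apoe is the lowest of the 8 in siCtrl, at a mean of 1.71 FPKM, and the highest in WT, at 1866 FPKM, and Plin2 and Abca1 lead in siCtrl.

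Most of the related genes were lower in siCtrl too: of 72 tested, 57 fell and 12 rose under TMM (95.8% called). Of the 57, 41 fell by more than the log2 0.70 by which scaling to library totals moved the median of all genes, and 16 fell by less. Among the other LXR targets 9 of 10 fell and Fasn rose (log2 0.88). Scd1 had no count in any siCtrl library, against a mean of 50.5 CPM in WT, and was at least 206-fold lower against a floor of 3 counts per library. Mertk, a receptor for apoptotic cells and also 1 of the macrophage markers, averaged 3.38 CPM in siCtrl and 109 CPM in WT, and Pltp 0.422 CPM in siCtrl and 202 CPM in WT. The droplet lipase gene Mgll had no count in siCtrl either, and was at least 287-fold lower. Cd36 fell (log2 -4.73), and Pparg had 2 counts over the 3 siCtrl libraries, against a mean of 23.5 CPM in WT. All 12 genes of the trafficking list fell under TMM, of which Scarb1, Gramd1b and Abca7 by less than that shift, with Lipa the most among those well above the floor (log2 -2.69). Of the ABC transporter relatives, Abca5, Abca8b (log2 5.64) and Abcg2 (log2 1.72) rose, and Lrp8 rose (log2 1.52).

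Over the 12 peritoneal libraries, the genes whose log2(CPM + 1) ran most like each of the 8 were sought among 8392 genes with a mean of at least 10 CPM. These correlations are descriptions, since the libraries fall into 2 clusters, with and without virus, that set most of each value. Abcg1 ran most like Lsp1 (Pearson's r = 0.999), C3ar1 (0.998) and Ifngr1 (0.997), and Apoe most like Slc6a8 (0.999). Plin2 ran most like Timp2, Arl8b and Tex2 (1.000, 0.999 and 0.999), and Nr1h3 most like Smarca2 (0.997). Lpcat3, lowest in the virus groups, ran closely with Msmo1 (0.990), an enzyme of cholesterol synthesis, and Nr1h2 most like Ncln (0.974). Mylip ran most like Map3k3 (0.972). Abca1, which hardly differed between the clusters, had its closest match in Bend4 at 0.930, followed by Cbl at 0.923. Among the 8 genes themselves, Nr1h3, Abcg1, Apoe and Plin2 ran together with r of 0.969 to 0.996, Lpcat3 ran opposite to these 4 (r of -0.949 to -0.973), and Abca1 was at 0.297 with Abcg1.

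Each gene was counted over the exons of its GENCODE M25 model on GRCm38, on the strand of the gene. Nr1h2 (ENSMUSG00000060601.13) spans chromosome 7 from 44549616 to 44553951, and Apoe (ENSMUSG00000002985.16) the same chromosome from 19696109 to 19699188, both on the minus strand. Abca1 (ENSMUSG00000015243.4, 53030787 to 53159895) and Plin2 (ENSMUSG00000028494.12, 86648386 to 86670060) lie on the minus strand of chromosome 4. Nr1h3 (ENSMUSG00000002108.10) spans chromosome 2 from 91184061 to 91202834 on the minus strand, where a same-strand gene, Gm13783, overlaps its span. Abcg1 (ENSMUSG00000024030.7) spans chromosome 17 from 31057675 to 31117988 on the plus strand, with Gm25447 on the same strand inside it, so reads where genes overlap are uncertain for Nr1h3 and Abcg1. Mylip (ENSMUSG00000038175.10) spans chromosome 13 from 45389742 to 45412022, and Lpcat3 (ENSMUSG00000004270.13) chromosome 6 from 124663027 to 124704418, both on the plus strand.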

How the data were processed

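RNA was sequenced from strand-specific libraries of total RNA, per the labels' protocols. The deposited files hold raw counts: for each gene, the authors counted read pairs over its exons in featureCounts 2.0.3 (reversely stranded mode), using GENCODE M25 models on GRCm38, per the file headers. Trimming with fastp, quality checks with FastQC, alignment with HISAT2 and use of DESeq2 are named in the submitters' processing notes, and the aligner's settings are not given in the sources used here. Symbols came from GENCODE M21 names matched by identifier, with none for 260 of 55401 identifiers and 106 symbols shared by more than 1 identifier. No library held counts on mitochondrial genes. The number in a file's header differed from that in its name, and the sample record decided its group.

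Each comparison used edgeR 4.0.16 (R 4.3.3) on the 6 libraries of its groups (filterByExpr, TMM, robust quasi-likelihood F test, Benjamini-Hochberg adjustment at 0.05 over all genes tested), and differences of effects to 12 libraries. CPM and FPKM shown were computed over all 18 libraries, so their ratios differ slightly from fitted folds. An exact permutation test of 3 against 3 cannot go below 0.1 and was not used. Alternatives were DESeq2 1.42.0, limma-voom (limma 3.58.1), RLE size factors, library totals without a composition factor, keeping genes with 1 CPM in 3 libraries, keeping all genes, fitting all 18 libraries at once, the replicate block, leaving out each library, and, added after seeing the data, leaving out 354 ribosomal RNA genes. In simulated data the fits of 6 libraries recovered 67 to 74% of 1.5-fold changes and 83 to 88% of 2-fold changes. Of the calls 1.82 to 7.14% were false, the most in Mut AdSmim30 against Mut AdCtrl. The simulation changed a small share of genes, drew spread from the trend over all genes and set no composition difference. These rates therefore need not hold where many genes differ, as in Mut AdCtrl against Mut and siCtrl against WT. Smaller changes, such as those of the 8 genes in the Smim30 comparisons, were not simulated. Within groups, replicates were further apart than counting noise allows (chi-square of 1.67 to 5.24 per gene). The 8 genes and all lists were chosen with earlier results of these data known. Named beside the 8 were Smim30, up to 4 called genes in each direction per list by smallest p, and the 3 genes most alike in pattern. Some genes that the rule allows are not reported here. Totals cover counting error only.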

Additional observations from a re-analysis of the deposited data

Results flagged for a closer look

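Abcg1 met a rule that marks effects differing between designs by a test of the difference itself. The mutation effect minus the siRNA effect was log2 0.47 (SE 0.09, 95% interval 0.29 to 0.64, adjusted p = 0.000462, edgeR), with Abcg1 higher in 3 of 3 Mut libraries than in any WT library and overlapping between siSmim30 and siCtrl. Cell source and kind of Smim30 change coincide with this difference and cannot be told apart. The mutation effect minus the Smim30 virus effect was log2 0.45 (SE 0.06, interval 0.32 to 0.58, adjusted p = 4.3e-06, edgeR), with 3 of 3 Mut AdSmim30 libraries below every Mut AdCtrl library. That virus difference (log2 -0.07) did not pass on its own (edgeR adjusted p = 0.234), while the mutation difference was log2 0.38. The virus adds Smim30 to mutant cells, so effects of opposite sign would give such a second value by themselves. It does not show that the designs disagree, nor that added Smim30 lowers Abcg1. Over 21 alternatives the adjusted p ran from 2.73e-05 to 0.00794 for the first and from 9.87e-10 to 6.46e-05 for the second.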

How the results depend on the processing

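Over all alternatives and comparisons of single genes among the 8, 911 values kept their call (genes that did not pass in either fit were counted here whatever their sign), 11 passed newly, 11 no longer passed, and 3 reversed, with the cause not tested. The reversed values were Abca1 at log2 0.038, Plin2 at 0.054 and Lpcat3 at 0.35 in siCtrl against WT without a composition factor. In Mut against WT, 1198 genes passed in the fit of all 18 libraries, against 788, and 1 of the 8 genes instead of 2 passed without a composition factor, without a filter, with DESeq2 and with the replicate block, Plin2 being the gene lost (adjusted p = 0.0534 with the block, edgeR). In Mut AdSmim30 against Mut AdCtrl, 68 genes passed with DESeq2 and 87 with all 18 libraries, with 0 of the 8 in both, while 2 of the 8 passed with the replicate block, Apoe and Abca1 (log2 0.10, adjusted p = 0.0424, edgeR). In siSmim30 against siCtrl, 291 passed with DESeq2 and 263 with all 18 libraries. Of the 8, 2 passed for mutation minus siRNA with all 18 libraries and 2 for mutation minus virus without a filter. For mutation minus siRNA, 415 genes passed without a composition factor, 256 higher and 159 lower, against 185 higher and 187 lower of 372.

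Leaving out 1 library gave 469 to 957 genes and 1 to 2 of the 8 in Mut against WT, 66 to 453 and 0 to 2 in Mut AdSmim30 against Mut AdCtrl, 309 to 422 and 0 in siSmim30 against siCtrl, 6274 to 6666 and 7 in Mut AdCtrl against Mut, 11074 to 11438 and 8 in siCtrl against WT, 267 to 571 and 1 to 2 for mutation minus siRNA, and 350 to 747 and 1 to 2 for mutation minus virus. Same-numbered replicates did not deviate together (r of -0.137 to 0.087 over 8804 genes), so the numbers were not taken as pairs. With the replicate block the same 5 comparisons gave 782, 253, 546, 6688 and 11191 genes, and the 2 differences of effects 415 and 490. Depth limits Apoe and Nr1h3 most in IC-21, where Apoe had 33 to 75 counts a library.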
